A study of Caenorhabditis elegans with 8 samples.

Results

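The Argonautes of the small RNA pathways of Caenorhabditis elegans, 10 genes chosen by symbol, were compared between worms mutant for ercc-1 and wild type N2. The 10 genes were alg-1, alg-2, rde-1, ergo-1, prg-1, csr-1, hrde-1, nrde-3, sago-2 and ppw-1. Of these, 8 were read by 14 probe sets that the platform annotation pairs with 1 gene, out of 22548 probe sets and 17118 genes in all. For rde-1, ergo-1, prg-1 and nrde-3 every such probe set has a name ending in _x_at or _s_at. These endings mark possible matches to other transcripts. Both sago-2 and ppw-1 were represented only by 1 probe set annotated to the pair of them, so neither gene was given a value.

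RNA came from cultures of mixed stage and was hybridised to 1-colour Affymetrix arrays, 4 for the ercc-1 mutant and 4 for wild type N2, the standard laboratory strain. The mutant is described as deficient in nucleotide excision repair and has the N2 background. In that pathway ERCC-1 works with a partner nuclease subunit to cut the DNA strand beside the lesion. The labels name no allele. Both groups ate Escherichia coli HT115(DE3) with pL4440, the plasmid backbone used for RNA interference by feeding and here listed with no insert, for 3 to 4 days. The values are read as log2 expression, so a difference of 1 is 2-fold, and all differences are mutant minus wild type. Nothing says that replicates were separate cultures, and each p-value therefore reflects only the array-to-array spread, which can be technical. In RNA of whole mixed cultures, fewer cells of a type and less RNA per cell cannot be told apart.

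Argonaute proteins hold a short guide RNA and use it to find complementary transcripts. In the worm the family is unusually large and divides the work. ALG-1 and ALG-2 carry microRNAs, RDE-1 takes up primary guides cut from foreign double-stranded RNA, ERGO-1 carries endogenous primary guides, and PRG-1 carries the piRNAs of the germ line. RNA-dependent RNA polymerases then copy the targeted transcript into secondary guides. These are loaded onto worm-specific Argonautes such as SAGO-2 and PPW-1 in the cytoplasm, HRDE-1 in germ line nuclei and NRDE-3 in somatic nuclei. CSR-1 binds guides against transcripts that the germ line expresses and is also needed for chromosome segregation in the embryo.

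For all 8 Argonaute transcripts the difference between ercc-1 mutant and wild type stayed within what the spread between arrays allows. Of the 8 genes 0 passed in limma's fit across all probe sets at an adjusted p under 0.05 (adjusted p from 0.82 to 0.986), where 0.665% of all probe sets passed, and 0 had an unadjusted p under 0.05, against 9.87% of all probe sets. At an adjusted p under 0.1 the count was also 0, against 1.09% of all probe sets. The 8 log2 differences lay between -0.22 and 0.058. Their 95% confidence intervals all held 0 and together ran from 0.588-fold to 1.26-fold. Without alg-1, whose interval was the widest, the other 7 ran from 0.778-fold to 1.26-fold, so a change of 2-fold lay outside every interval.

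**Figure D1:**
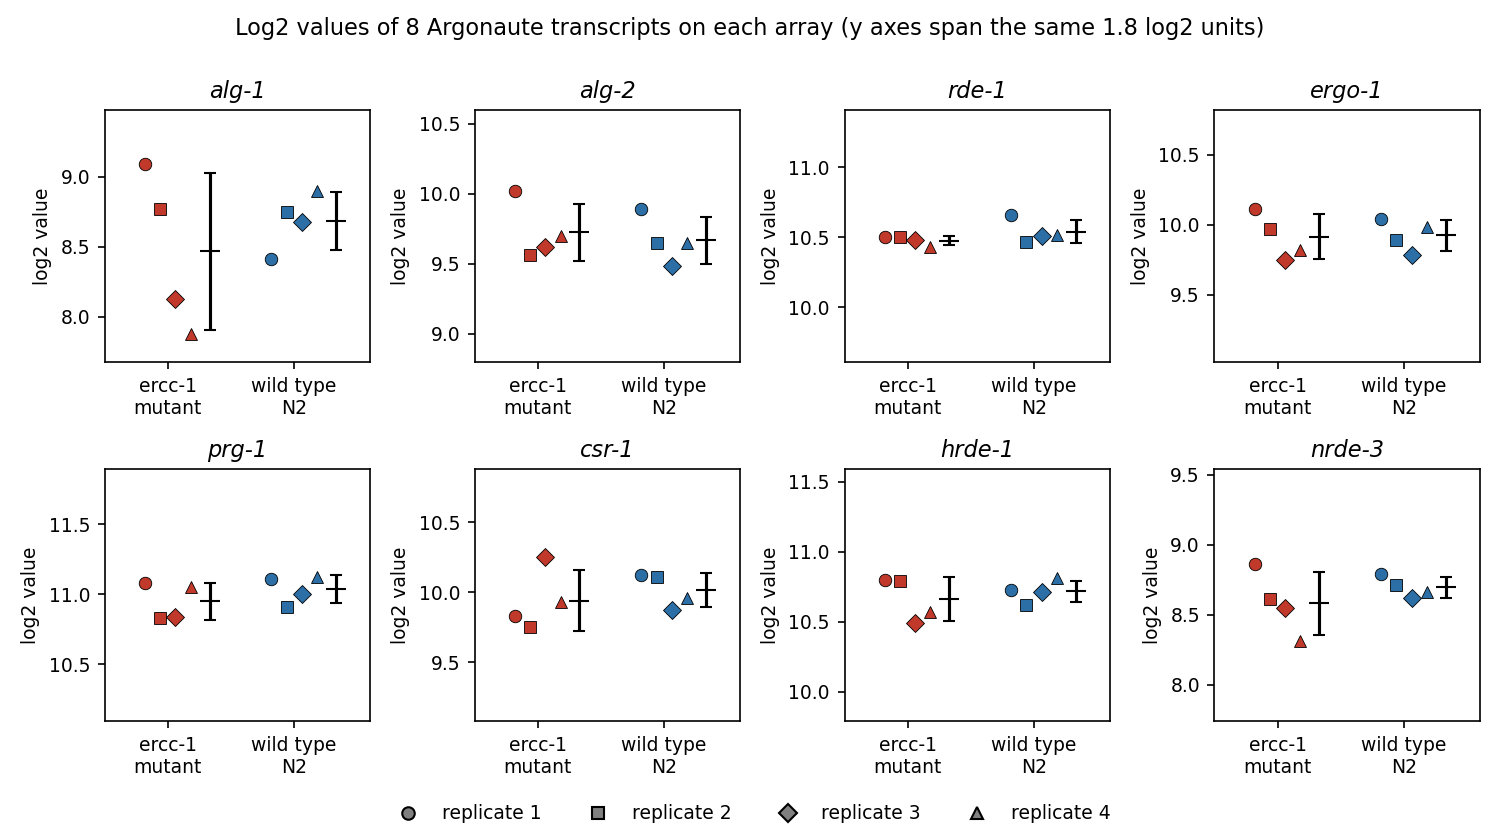
Log2 values (y axis) of the brightest single-gene probe set of 8 Argonaute genes on 4 ercc-1 mutant arrays (red, left) and 4 wild type N2 arrays (blue, right). Symbols mark the replicate number, and the black bar gives the mean ± SD of each group (n = 4). The groups overlap in all 8 panels, and the mutant values of alg-1, from 7.88 to 9.09, are the most spread.

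The microRNA Argonautes were alg-1, on chromosome X in the RefSeq annotation WBcel235, and alg-2, on chromosome II. The brightest of 3 alg-1 probe sets read 9.09, 8.77, 8.13 and 7.88 on mutant replicates 1 to 4, against 8.41, 8.75, 8.68 and 8.90 on wild-type replicates 1 to 4. Mutant replicate 1 lay above all wild-type arrays, replicate 2 within their range, and replicates 3 and 4 below all of them. The mutant mean was 8.47 ± 0.559 and the wild-type mean 8.69 ± 0.205 (SD over 4 arrays), a log2 difference of -0.22 (95% interval -0.77 to 0.33, limma adjusted p = 0.844). Leaving out mutant replicate 1 gave -0.42, and leaving out mutant replicate 4 gave -0.022, with adjusted p = 0.546 and 0.982.

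The mutant SD of that alg-1 probe set was larger than the mutant SD of 97.6% of all probe sets, and its 4 mutant arrays spanned 2.31-fold, against 1.40-fold over the wild-type arrays. The second alg-1 probe set had the same order of mutant arrays, with 8.10, 8.0, 7.70 and 7.52 in the mutant, against 8.0, 8.05, 7.78 and 7.99 in wild type. Its log2 difference was -0.12 (95% interval -0.42 to 0.17). The third probe set did not share this spread. It read 7.09, 7.17, 7.06 and 7.06 in the mutant, against 7.03, 7.21, 7.10 and 7.27 in wild type, a log2 difference of -0.058 with a mutant SD of 0.052. The wide spread in the mutant thus appeared on 2 of the 3 alg-1 probe sets.

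The means of 8 neuron, 8 body wall muscle and 8 intestine markers were also highest on mutant replicate 1. The neuron markers averaged 8.94, 8.69, 8.34 and 8.34 on mutant replicates 1 to 4, against 8.58, 8.38, 8.44 and 8.44 in wild type. The muscle markers averaged 10.95, 10.64, 10.30 and 10.60 in the mutant, against 10.47, 10.34, 10.31 and 10.39 in wild type. The intestine markers averaged 11.31 on mutant replicate 1, against 10.96 to 11.03 on the other mutant arrays and 11.01 to 11.07 in wild type. In wild type alg-1 had its lowest value on replicate 1, where the neuron and muscle markers had their highest. The part of these tissues in the alg-1 values was not tested.

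**Figure D2:**
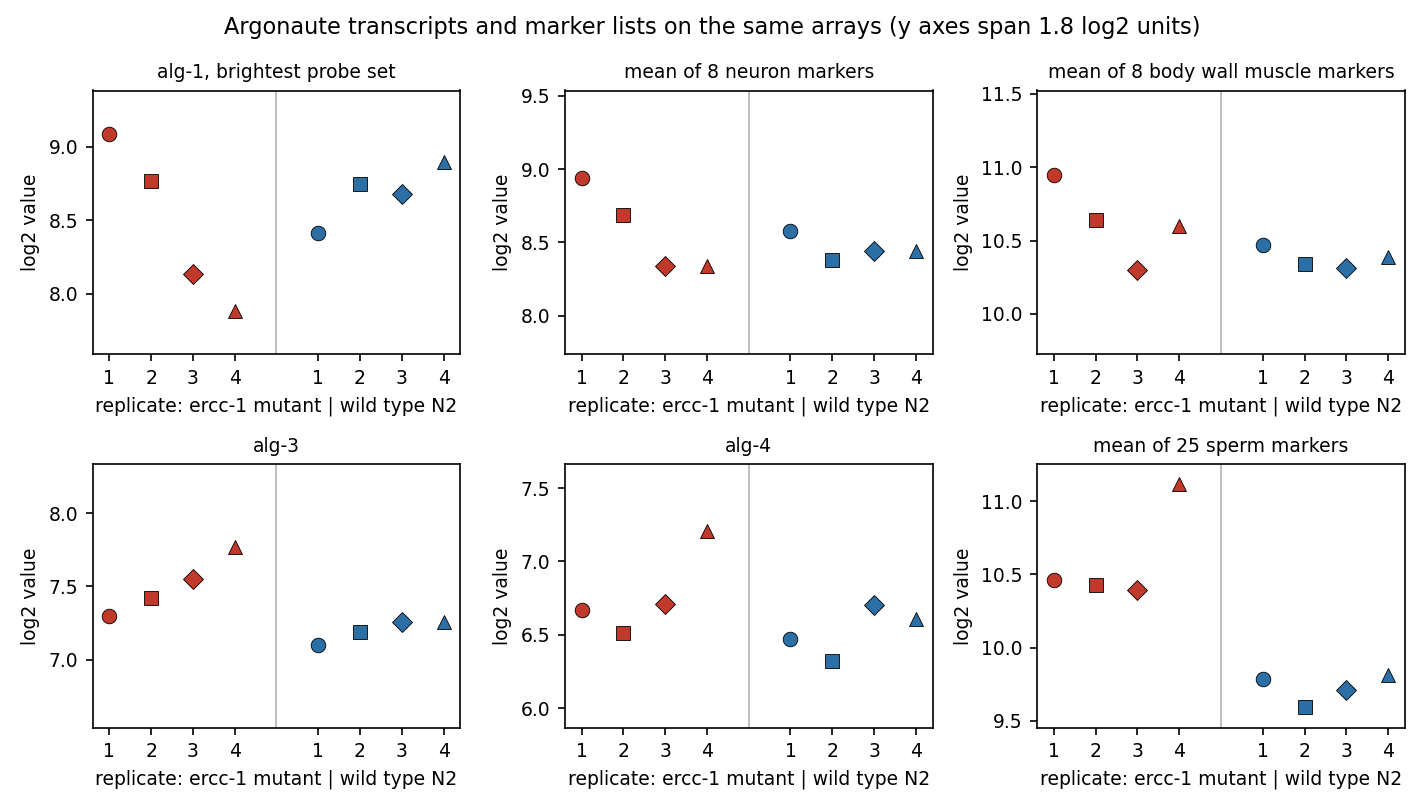
Log2 values (y axis) on each array (x axis, replicate number, ercc-1 mutant in red at the left, wild type N2 in blue at the right) for alg-1, alg-3 and alg-4 and for the mean of 3 marker lists. In the mutant alg-1 and the neuron markers are highest on replicate 1, while alg-3, alg-4 and the sperm markers are highest on replicate 4. Of all genes, 32.6% are highest on mutant replicate 1 and 36.3% on mutant replicate 4, ties included.

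Of the 2 alg-2 probe sets, the brighter read 10.02, 9.56, 9.62 and 9.70 in the mutant, against 9.89, 9.65, 9.48 and 9.65 in wild type. Replicate 1 was the highest array of each group. The log2 difference was 0.058 (95% interval -0.21 to 0.33, limma adjusted p = 0.932), the only one of the 14 probe sets above 0. It turned to -0.041 when mutant replicate 1 was left out, to -0.005 when wild-type replicate 3 was left out and to -0.0325 after median centring of the arrays. The second alg-2 probe set, with 8.14, 7.90, 7.91 and 7.76 in the mutant and 8.32, 7.94, 7.79 and 7.80 in wild type, gave -0.035.

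RDE-1 is required for RNA interference started by foreign double-stranded RNA, the response that feeding vectors are built to trigger. The brighter rde-1 probe set (chromosome V) read 10.50, 10.50, 10.48 and 10.43 in the mutant, against 10.66, 10.47, 10.51 and 10.52 in wild type. The mutant arrays agreed within 0.07 log2 units, and all lay inside or just below the wild-type range. The log2 difference was -0.0625 (95% interval -0.21 to 0.089, limma adjusted p = 0.837), the narrowest interval of the 8 genes. The second probe set read 8.56, 8.59, 8.63 and 8.79 in the mutant, against 8.75, 8.68, 8.66 and 8.79 in wild type, a log2 difference of -0.0775 (adjusted p = 0.813).

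ERGO-1 binds primary guides made from endogenous transcripts in oocytes and embryos. Its transcript (chromosome V) read 10.11, 9.97, 9.75 and 9.82 in the mutant, against 10.04, 9.89, 9.78 and 9.98 in wild type. The groups covered nearly the same range. The log2 difference of -0.01 (95% interval -0.23 to 0.21, limma adjusted p = 0.986) was the smallest of the 8, and it turned to 0.044 when mutant replicate 3 was left out and to 0.029 when wild-type replicate 1 was.

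The piRNA Argonaute prg-1, on chromosome I, read 11.08, 10.83, 10.84 and 11.05 in the mutant, against 11.11, 10.91, 11 and 11.12 in wild type. The lowest mutant arrays, replicates 2 and 3, lay below every wild-type array, and the other mutant arrays lay within the wild-type range. Mutant and wild type differed by -0.085 on the log2 scale (95% interval -0.28 to 0.11, limma adjusted p = 0.83).

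Of the Argonautes that carry secondary guides, csr-1 (chromosome IV) read 9.83, 9.75, 10.25 and 9.93 in the mutant, against 10.12, 10.11, 9.87 and 9.96 in wild type. Mutant replicate 3 was the highest of all 8 arrays, and mutant replicates 1 and 2 were the lowest. The mean difference was -0.075 on the log2 scale (95% interval -0.33 to 0.18, limma adjusted p = 0.899), and -0.18 without mutant replicate 3 (adjusted p = 0.472). The mean of 14 germ line markers was 10.71, 10.71, 10.80 and 10.73 in the mutant and 10.81, 10.80, 10.77 and 10.80 in wild type. Among mutant arrays that mean was also highest on replicate 3. On the same array the brightest hrde-1 probe set had its lowest value, 10.49. There prg-1 read 10.84, against 10.83 to 11.08 on the other mutant arrays. The part of germ line content in the csr-1 values was not tested.

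The nuclear germ line Argonaute hrde-1 (chromosome III) had 3 probe sets. The brightest read 10.80, 10.79, 10.49 and 10.57 in the mutant, against 10.73, 10.62, 10.71 and 10.81 in wild type, a log2 difference of -0.055 (95% interval -0.26 to 0.15, limma adjusted p = 0.906). It turned to 0.0025 without mutant replicate 3. The second read 10.37, 10.19, 10.34 and 10.02 in the mutant, against 10.59, 10.40, 10.25 and 10.42 in wild type. Here 2 mutant arrays lay below all wild-type arrays, and the log2 difference was -0.18 (95% interval -0.41 to 0.045). Its p was the lowest of the 14 probe sets (limma unadjusted p = 0.103, adjusted p = 0.615). The third, at 6.12, 6.31, 5.84 and 5.75 in the mutant and 5.97, 5.97, 6.22 and 6.31 in wild type, gave -0.11 and was among the dimmest 25% of probe sets, whose bound was 6.42.

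The somatic nuclear Argonaute nrde-3 (chromosome X) read 8.86, 8.61, 8.55 and 8.31 in the mutant, against 8.79, 8.71, 8.62 and 8.66 in wild type. Mutant replicate 1 was the highest of the 8 arrays and mutant replicate 4 the lowest. The mutant mean was 8.58 ± 0.226 and the wild-type mean 8.70 ± 0.073 (SD over 4 arrays), a log2 difference of -0.11 (95% interval -0.36 to 0.14, limma adjusted p = 0.82). Leaving out mutant replicate 1 gave -0.20, and leaving out mutant replicate 4 gave -0.022.

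**Figure D3:**
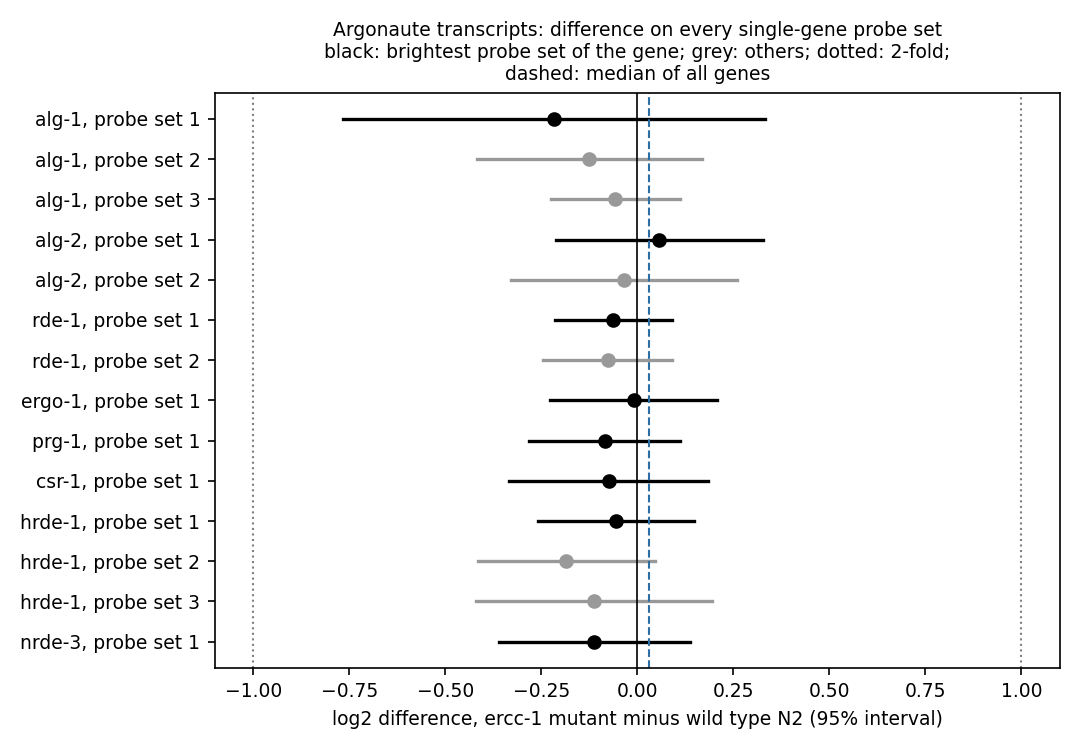
Log2 difference, ercc-1 mutant minus wild type N2 (x axis), with its 95% confidence interval for each of the 14 single-gene probe sets of 8 Argonaute genes (rows). Black marks the brightest probe set of a gene, grey the others, dotted lines a 2-fold change and the dashed line the median of all genes, 0.03. All intervals hold 0, and 13 of the 14 points lie below 0.

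Small negative differences prevailed among these genes without any one passing. Of the 8 genes 7 lay below wild type, with a median of -0.069, while 59.4% of all genes were above it (median 0.03). The direction over all genes turned with the scaling: 66.8% lay below wild type after median centring (median -0.06) and 54.1% after quantile normalization (median -0.013), where 8 and 7 of the 8 Argonautes lay below it (median -0.16 and -0.090). The same direction was seen in 13 of the 14 probe sets. Of 14 germ line markers 12 lay below wild type (median -0.054, 0 called), as did 9 of 12 oocyte and early embryo markers (median -0.0275, 0 called). Several of the Argonautes act in the germ line, and the part of germ line content in their values was not tested. The mean of the 8 Argonautes ran from 9.71 to 10.04 over the mutant arrays and from 9.83 to 9.97 over the wild-type arrays, so the wild-type range lay within the mutant range.

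Most of the Argonautes were highest on the same mutant array. Mutant replicate 1 was the highest mutant array, ties included, for 7 of the 8 genes, and for 32.6% of all genes. After median centring of the arrays this was the case for 4 of the 8 Argonautes and for 20.4% of all genes. Among wild-type arrays, replicate 1 was the highest for 5 of the 8 Argonautes and for 26.8% of all genes. With median centring these were 4 of the 8 and 22.1%. The array median of mutant replicate 1 was also the highest, 7.59 against 7.39 to 7.52 on the other 7 arrays. On the brightest probe sets the SD was larger in the mutant than in wild type for 7 of the 8 Argonautes, with rde-1 the exception, and for 67% of all genes. Over all Argonaute probe sets this held for 11 of 14 (78.6%), the second rde-1 probe set among them.

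The ercc-1 probe set itself read 9.84, 9.75, 9.83 and 9.93 in the mutant, against 9.74, 9.78, 10.02 and 9.87 in wild type. Where its probes lie relative to the mutation is not known here, so it does not check the labels. Over all probe sets 121 (0.537%) were called higher and 29 (0.129%) lower in the mutant. Of 25 sperm markers 16 rose and 0 fell, with a median log2 difference of 1.02. The 16 were 15 of the 18 msp genes, which encode the near-identical major sperm proteins, and ssp-10, each on a probe set whose name ends in _x_at, a mark of possible matches to other transcripts. The 4 markers read by other probe sets, spe-9, spe-11, spe-38 and fer-1, did not pass and gave 0.04, 0.29, 0.0325 and 0.0275 (limma adjusted p from 0.393 to 0.962). The mean of the 25 ran from 10.39 to 11.11 in the mutant and from 9.59 to 9.82 in wild type, and their summed linear level from 65440 to 113360 in the mutant and from 33097 to 39285 in wild type. The lowest of them, spe-38, averaged 5.36, and 0 values of the list were listed at 0. The number called was 20 without mutant replicate 4, between 6 and 12 without another mutant replicate, and 1 without any 1 wild-type replicate, where the median stayed between 0.98 and 1.07. Of the 8 intestine, 8 muscle and 8 neuron markers 0 were called, with medians of 0.064, 0.20 and 0.11. Above wild type lay 5 intestine, 8 muscle and 7 neuron markers, as did 59.4% of all genes. An unadjusted limma p under 0.05 was found for 3 muscle markers and 0 of the others, against 9.87% of all probe sets. All defining markers of these tissues had a value above 0 on every array.

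The other 13 Argonautes of a list written from general knowledge were all measured, and 0 passed. Of these 5 lay above and 8 below wild type, with a median of -0.025, and 4 had an unadjusted p under 0.05, in groups that did not overlap, which was the case for 6.48% of all probe sets (4.72% with the mutant above and 1.76% with it below) and for 0 of the 8 Argonautes described first. The Argonaute alg-3, which acts with alg-4 in sperm development, read 7.30, 7.42, 7.55 and 7.77 in the mutant, against 7.10, 7.19, 7.26 and 7.26 in wild type. All mutant arrays lay above all wild-type arrays, and the highest was mutant replicate 4, where the sperm markers also had their highest mean. That array was the highest mutant array, ties included, for 36.3% of all genes. Over mutant replicates 1 to 3 alg-3 rose, while the sperm mean fell from 10.46 to 10.43 and 10.39. The log2 difference of alg-3 was 0.31 (SE 0.103, limma unadjusted p = 0.0147, adjusted p = 0.33), and 0.22 without mutant replicate 4.

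The partner gene alg-4 was named after its value was seen. It read 6.67, 6.51, 6.71 and 7.21 in the mutant, against 6.47, 6.32, 6.70 and 6.61 in wild type, a log2 difference of 0.25 in groups that overlapped (adjusted p = 0.648). That was the brightest of 3 alg-4 probe sets, all with the suffix _x_at or _s_at. The second, at 6.32, 6.50, 6.43 and 6.99 in the mutant and 6.40, 6.18, 6.02 and 6.16 in wild type, gave 0.37 (95% interval 0.043 to 0.70, limma unadjusted p = 0.0305, adjusted p = 0.427), and the third gave 0.0525. On the first and second probe set mutant replicate 4 was the highest of all 8 arrays. The part of sperm content in the alg-3 and alg-4 values was not tested.

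Among the worm-specific Argonautes, wago-2 read 9.62, 9.69, 9.67 and 9.71 in the mutant, against 9.98, 9.94, 9.76 and 9.92 in wild type. All mutant arrays lay below all wild-type arrays, a log2 difference of -0.23 (SE 0.071, limma adjusted p = 0.283). For wago-11 the values were 6.15, 6.22, 6.32 and 6.18 in the mutant, against 6.34, 6.44, 6.56 and 6.54 in wild type. These groups did not overlap either, but the mean over all arrays lay in the dimmest 25% of probe sets (difference -0.25, SE 0.076, limma adjusted p = 0.264). With array weights, where mutant replicate 2 alone had a weight of 5.05 and the other mutant arrays 0.322 to 0.624, wago-2 and wago-11 passed (adjusted p = 0.0321 and 0.0367), as did 6.31% of all probe sets. The fourth, vsra-1, named after its values were seen, had 9.63, 9.59, 9.46 and 9.53 in the mutant, against 9.38, 9.36, 9.10 and 9.39 in wild type (difference 0.24, adjusted p = 0.348).

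**Figure D4:**
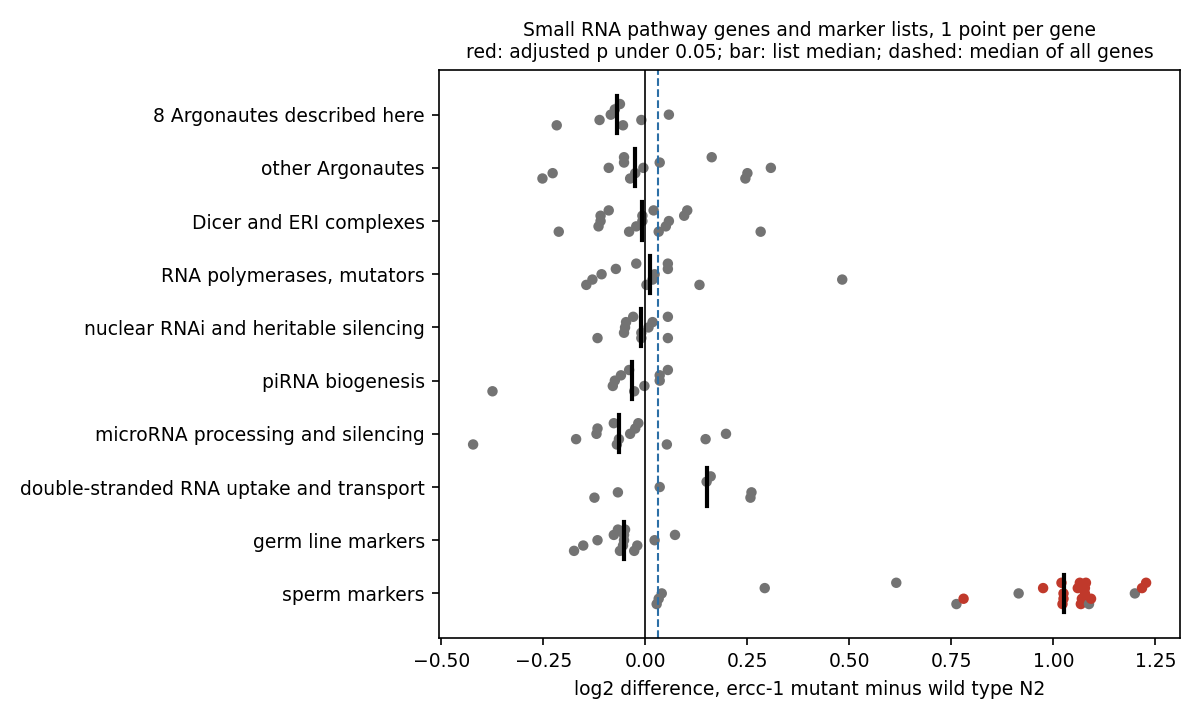
Log2 difference, ercc-1 mutant minus wild type N2 (x axis), of each gene (points) in the 8 Argonautes, 7 lists of other small RNA pathway genes and 2 marker lists (rows). Black bars are list medians, the dashed line is the median of all genes (0.03), and red points passed at an adjusted p under 0.05. Red points occur only among the sperm markers, where 16 of 25 passed.

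The proteins that make, copy or move guide RNAs were taken from 6 further lists. With the other Argonautes they made 82 measured genes, of which 0 passed and 8 had an unadjusted p under 0.05, a share of 9.76% against 9.87% of all probe sets. Their median log2 difference was -0.02, 34 lay above and 48 below wild type, and none of the 82 intervals reached 2-fold in either direction. The groups did not overlap for 4 genes with the mutant above and for 3 with it below, against 4.72% and 1.76% of all probe sets. Some of the 82, among them alg-3, vsra-1, drh-2, mut-14, nhl-2 and sid-3, were read only by a probe set ending in _s_at.

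Dicer cuts double-stranded RNA into primary guides. Of 16 genes listed with Dicer and the ERI complexes, 7 lay above and 9 below wild type (median -0.0075). The Dicer-related helicase gene drh-2 read 8.65, 8.61, 8.47 and 8.47 in the mutant, against 8.15, 8.15, 8.44 and 8.33 in wild type. The groups did not overlap, by a margin of 8.47 to 8.44, and the log2 difference was 0.28 (SE 0.089, limma adjusted p = 0.29; 0.0202 with array weights). The nuclease gene rde-8 gave -0.21 and the RNA phosphatase gene pir-1 gave -0.12 (limma adjusted p = 0.56 and 0.698). A second, dim rde-8 probe set gave 0.03.

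Of 12 genes for RNA-dependent RNA polymerases and mutator proteins, which amplify secondary guides, 7 lay above and 5 below wild type (median 0.01). The polymerase gene rrf-2 had the largest difference of the list. It read 7.34, 7.01, 6.66 and 6.49 in the mutant, against 6.40, 6.45, 6.23 and 6.49 in wild type, so that mutant replicate 4 equalled the highest wild-type array. The log2 difference was 0.48 (SE 0.168, limma adjusted p = 0.348; 0.0148 with array weights), and 0.33 without mutant replicate 1. Its probe set has the suffix _s_at and can match several transcripts. The somatic polymerase gene rrf-1 gave 0.13 and the helicase gene mut-14 gave -0.14 (limma adjusted p = 0.581 and 0.538), with 0.01 on the second rrf-1 probe set. The mut-14 groups did not overlap, with 9.75 to 9.93 in the mutant and 9.95 to 10.07 in wild type.

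Nuclear silencing, through which HRDE-1 and NRDE-3 act on chromatin and transcription, was read by 11 genes. Of these 4 lay above and 7 below wild type (median -0.01), and the ends of the range were -0.12 and 0.055. The lowest p values belonged to morc-1, a nuclear ATPase gene (-0.12, limma adjusted p = 0.748), to cid-1, listed also as cde-1, whose product adds uridines to CSR-1 guides (0.055, adjusted p = 0.86), and to met-2, a histone methyltransferase gene (-0.0525, adjusted p = 0.901). The second probe sets of cid-1 and met-2 gave -0.0775 and -0.0925.

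Of 10 measured genes of piRNA biogenesis, which supply PRG-1, 3 lay above and 7 below wild type (median -0.034). The gene prde-1, needed for transcription of piRNA precursors, read 6.82, 7.29, 7.62 and 7.21 in the mutant, against 7.39, 7.84, 7.63 and 7.58 in wild type. Of the mutant arrays 3 lay below all wild-type arrays and replicate 3 lay within their range, giving -0.38 (SE 0.161, limma adjusted p = 0.486), or -0.24 when mutant replicate 1 was left out. The values for tofu-4 and pid-3 were -0.08 and -0.075 (adjusted p = 0.814 and 0.817).

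Of 13 measured genes of microRNA processing and silencing, the pathway of ALG-1 and ALG-2, 3 lay above and 10 below wild type (median -0.065). The cofactor gene nhl-2 read 7.75, 8.09, 8.11 and 7.25 in the mutant, against 8.07, 8.26, 8.16 and 8.40 in wild type. Its lowest value was on mutant replicate 4, and the log2 difference was -0.42 (SE 0.18, limma adjusted p = 0.476), or -0.24 when that array was left out. The exportin gene xpo-1 gave 0.15 and vig-1, for a component of the silencing complex, -0.12 (adjusted p = 0.579 and 0.677). The second probe sets of xpo-1 and vig-1 gave -0.17 and -0.0325, so the xpo-1 probe sets differed in sign.

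Uptake and transport of double-stranded RNA, which let RNA in the food reach other tissues, were read by 7 genes, 5 above and 2 below wild type (median 0.15). The kinase gene sid-3 read 8.43, 8.26, 8.19 and 8.21 in the mutant, against 8.14, 8.06, 8.08 and 8.17 in wild type, in groups that did not overlap (0.16, limma adjusted p = 0.534). The gene sid-5, for an endosomal protein, gave 0.26 and sid-2, for the receptor of the gut lumen, 0.26 (adjusted p = 0.58 and 0.609).

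The genes whose values followed nrde-3 and prg-1, the 2 Argonautes with the lowest p on their main probe set, were found by the root-mean-square difference between profiles over the 8 arrays, each centred on its mean. Among 17110 other genes the nearest to nrde-3 were tns-1, the tensin gene (0.0377 log2 units), fbxa-167, an F-box gene (0.0483), and C25F9.5 (0.051), where the median over all these genes was 0.213. The tns-1 values were 8.19, 7.97, 8.0 and 7.68 in the mutant, against 8.14, 8.08, 8.01 and 7.98 in wild type, again highest on mutant replicate 1 and lowest on mutant replicate 4. The nearest to prg-1 were F54D12.1 (0.0352), pacs-1 (0.0398) and mys-2, a gene of the MYST acetyltransferase family (0.0426), where the median was 0.175. With 8 arrays and so many genes, close profiles of this kind are a description of these arrays.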

How the data were processed

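The authors deposited 1 table with a value per probe set and array, taken here to be log2 expression because the values run from 0 to 14.38, and no background level was used. Affymetrix Expression Console 1.1 made them, per the submitters' processing notes; how it summarised and normalized them is not given in the sources used here. Of the probe sets, 20766 had 1 gene, 887 several and 895 none, and 20701 gene identifiers were found in RefSeq (WBcel235), which changed 0 symbols and was used for names and chromosomes only. The probe set with the highest mean stood for a gene. The comparison used limma 3.58.1 under R 4.3.3 (lmFit, eBayes, two-sided, Benjamini-Hochberg over 22548 probe sets). The fit was also run on simulated data with known changes, all larger than the Argonaute differences reported here. The number of arrays (n = 4 per group) limits the precision.

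The Argonautes and the lists were chosen with earlier results of these data known. Named were the Argonautes, the called genes and 3 lowest p of each pathway list, and the 3 genes nearest to 2 Argonautes. Of list members, 10 beside sago-2 and ppw-1 matched no single-gene probe set. Alternatives were median centring, quantile normalization, dropping dim or _x_at and _s_at probe sets, array weights, a trended robust variance, the replicate block, a threshold of 0.1 and leaving out each array. Same-numbered arrays were not paired by the labels. The deviations of the 4 same-numbered pairs correlated at r = 0.47, 0.014, 0.04 and 0.20 for replicates 1 to 4.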

Additional observations from a re-analysis of the deposited data

Results flagged for a closer look

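In 3 of 70 groups of 4 arrays, 1 array stood apart from the other 3 by Dixon's test at the 95% level, which chance does in about 1 of 20 groups. None of these was an Argonaute value. For morc-1, wild-type replicate 4 read 9.08, against 9.22 to 9.23 on the other wild-type arrays. For met-2, mutant replicate 4 read 9.16, against 9.07 to 9.08 on the other mutant arrays. For tofu-4, wild-type replicate 1 read 8.68, against 8.86 to 8.89 on the other wild-type arrays.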

How the results depend on the processing

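No Argonaute probe set passed at an adjusted p under 0.05 under any alternative (0 of 203 values). The lowest limma adjusted p, 0.09997, belonged to the second hrde-1 probe set with array weights and lay just under 0.1. In the main fit 0 of the 8 genes passed at a threshold of 0.1 on their brightest probe set. Over all probe sets 150 were called, against 1423 with array weights, 46 without _x_at and _s_at probe sets and 29 to 268 when 1 array was left out. With the replicate block 125 were called, and the call of no named gene changed. Only mutant replicate 1 correlated best with the wild-type array of its own number. Mutant replicates 2, 3 and 4 correlated best with wild-type replicates 1, 2 and 3 (r = 0.075, 0.12 and 0.25). With array weights alone, wago-2, wago-11, drh-2 and rrf-2 passed. Some differences turned sign, none of them called in either direction, and the cause was not tested. With array weights they were 0.040 and 0.11 for the brightest and the dimmest hrde-1 probe set (-0.055 and -0.11 without weights), -0.061 for alg-2, 0.023 for ergo-1 and -0.0066 for cid-1. With median centring they were -0.0325 for alg-2 and -0.035 for cid-1. Leaving out 1 array gave -0.10 to 0.0025 for hrde-1, -0.041 to 0.13 and -0.11 to 0.084 for the 2 alg-2 probe sets, -0.076 to 0.044 for ergo-1, -0.17 to 0.00083 for tns-1 and -0.16 to 0.021 for fbxa-167. Of 594 differences recomputed under alternatives, 572 kept direction and side of the threshold. The trended robust variance, the replicate block and the dropping of probe sets leave a difference as it was. Those values could change only in their adjusted p. Median centring lowered every difference by 0.09.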
